A study of Homo sapiens with 14 samples.

Results

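The 78 nuclear genes that carry an MRPL or MRPS symbol, which code for the proteins of the mitochondrial ribosome, were examined in 7 groups of cultured cancer cells. Members were all protein-coding genes of GENCODE release 44 with a symbol made of MRPL or MRPS, a number and at most 1 further letter, and 78 of the 60683 gene identifiers in the count files met this rule. Of these, 49 had an MRPL symbol and 29 an MRPS symbol. The proteins of 51 belong to the large subunit and those of 26 to the small subunit, since MRPS30 and MRPS18A sit in the large subunit in spite of their names, and MRPS36, now known as a part of the α-ketoglutarate dehydrogenase complex, was counted in neither.

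RNA was sequenced from A549, a lung cancer cell line, and SUM159, a triple negative breast cancer line. A549 was left untreated or was exposed for 10 days to 2 µM palbociclib (an inhibitor of the cyclin-dependent kinases CDK4 and CDK6), to 0.5 µM indisulam (a sulfonamide that directs the splicing factor RBM39 to degradation) or to both drugs together, called the combination here. Both lines were also exposed for 7 days to 0.5 µM PF-06873600, an inhibitor of CDK2 besides CDK4 and CDK6, and SUM159 had its own untreated cells. Each of the 7 groups had 2 libraries, 14 in all. These were technical duplicates, so the p-values below measure a spread that may be technical only, and 1 line stood for each tumour type. For the untreated cells no collection time was given in the sources used here.

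Mitochondria hold a ribosome of their own, which translates the few messenger RNAs of the mitochondrial genome into core subunits of the respiratory chain. Its 2 RNAs are made from mitochondrial DNA, but all of its proteins are coded in the nucleus, made in the cytosol and imported. Many descend from bacterial ribosomal proteins, whereas others arose in mitochondria. By the protein names used for the ribosome structure, 46 members counted as homologs of bacterial proteins (30 large, 16 small). Another 31 counted as mitochondria-specific (21 large, 10 small). By these names MRPS18A and MRPS18B counted as mitochondria-specific and their paralog MRPS18C as a bacterial homolog, so the classes do not strictly follow descent. Transcription of many such genes is known to involve NRF1, the ETS-family factor GABP and YY1.

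The members were spread over 21 chromosomes, and their promoters held 2 short stretches of letters at a higher share than promoters at large. A promoter (250 bases before to 50 after the start, RefSeq, GRCh38.p14) was at hand for 69 of the 78 members and for 15843 protein-coding genes in all. The letters CCGGAAG, the core bound by ETS factors, were found on either strand in 29 of the 69 (42%) against 14.2% of all promoters. The letters AAGATGGC, read by YY1, were found in 20 of the 69 (29%) against 3.91% of all. A YY1 match at or after the start was present in 15 of those 20, no YY1 match shared bases with an ETS match, and 8 members held both. Shares of the other letters searched lay closer to the background, with the NRF1 motif (GCGC and TGCGC with any 1 base between) in 11.6% against 8.58%, CACGTG (E-box) in 8.7% against 8.88%, TTTGAA (the core of the CHR element of cell cycle genes) in 5.8% against 12.1%, and TTCCCGCC (E2F) in 4.35% against 4.24%. These are matches of letters, not measured binding.

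To show what such promoters look like, 4 are printed with the letters searched in capitals, on the strand of the gene. They belong to members described below. MRPL48 (chr11:73787624-73787871, plus strand), MRPL54 (chr19:3762432-3762681, plus strand) and MRPL58 (chr17:75012420-75012669, plus strand) were lower in SUM159 with PF-06873600 and hold the ETS letters, reversed (CTTCCGG) in MRPL48 and MRPL54 and once in each orientation in MRPL58. MRPL17 (chr11:6683341-6683590, minus strand) was higher in A549 with PF-06873600 and holds the NRF1 letters. Among members lower in SUM159 with PF-06873600, the ETS letters were in 42.4% of 59 promoters, against 42% of all 69. The NRF1 letters were in 4 of 15 promoters of members higher in A549 with PF-06873600 and in 3 of 19 of those lower. Whether letters go with a direction of change was not tested. Each ends at the base before the RefSeq start, except that of MRPL48, which ends 3 bases before the start.
MRPL48: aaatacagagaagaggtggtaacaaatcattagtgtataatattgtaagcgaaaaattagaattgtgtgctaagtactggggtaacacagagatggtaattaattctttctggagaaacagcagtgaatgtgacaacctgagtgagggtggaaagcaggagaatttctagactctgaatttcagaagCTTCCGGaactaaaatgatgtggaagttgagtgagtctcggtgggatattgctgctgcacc
MRPL54: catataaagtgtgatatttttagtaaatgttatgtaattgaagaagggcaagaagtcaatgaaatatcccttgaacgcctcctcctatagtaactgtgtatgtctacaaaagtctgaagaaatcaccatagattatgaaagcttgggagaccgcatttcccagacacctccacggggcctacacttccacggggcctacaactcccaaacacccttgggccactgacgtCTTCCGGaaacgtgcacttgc
MRPL58: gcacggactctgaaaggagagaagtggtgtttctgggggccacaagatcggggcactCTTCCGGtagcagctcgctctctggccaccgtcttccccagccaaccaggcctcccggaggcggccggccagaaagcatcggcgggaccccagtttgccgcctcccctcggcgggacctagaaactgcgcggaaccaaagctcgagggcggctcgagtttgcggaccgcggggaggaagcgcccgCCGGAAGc
MRPL17: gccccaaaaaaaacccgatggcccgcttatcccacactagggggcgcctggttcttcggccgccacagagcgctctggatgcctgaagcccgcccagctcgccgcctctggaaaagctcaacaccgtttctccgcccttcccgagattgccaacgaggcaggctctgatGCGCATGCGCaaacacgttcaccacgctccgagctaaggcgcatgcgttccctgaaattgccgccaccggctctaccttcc

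Another pair of members is shown for the YY1 letters, in capitals, which lay just downstream of the start. In MRPS18A (chr6:43687764-43687793, minus strand) they began 9 bases after the first transcribed base, and in MRPS30 (chr5:44808949-44808978, plus strand) 13 bases after it.
MRPS18A: gtaggtttttgAAGATGGCggccctcaagg
MRPS30: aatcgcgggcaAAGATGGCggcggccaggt

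Library totals ran from 13060374 to 21149256 counts on genes, and levels are given as CPM, the counts per 1000000 of that total. The 2 libraries of a group differed beyond counting error in each group (chi-square of their counts over genes 1.61 to 9.57 times its degrees of freedom, lowest for A549 with PF-06873600 and highest for untreated A549). Untreated A549 expressed the epithelial keratin KRT8 (1908 to 2344 CPM) and the cadherin CDH1 (152 to 160 CPM), but SFTPC and NKX2-1, markers of alveolar cells, were at 0.14 CPM or lower. In untreated SUM159, VIM stood at 4006 to 4318 CPM, CDH1 and EPCAM below 1 CPM, the hormone receptor genes ESR1 and PGR at 0.302 CPM or lower and ERBB2 at 118 to 122 CPM. The defining leukocyte marker PTPRC (9.35 to 9.90 CPM) and the endothelial marker PECAM1 (10.9 to 11.5 CPM) were also counted in untreated SUM159. With PF-06873600 they stood at 17.9 to 20.3 and 25.5 to 27.6 CPM there, above the untreated libraries. In A549 PTPRC was at 0.556 CPM or lower in every group, and PECAM1 was at 1.5 to 1.6 CPM untreated and 0.0644 to 0.0709 CPM with the combination. The part of these genes in the results was not tested.

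MRPL53 never exceeded 3 counts in any library and was not tested. The limit that 3 counts allow (0.204 CPM in the first untreated A549 library) covers only reads credited to it. Of its exon bases 72.8% are shared with CCDC142 on the same strand, so its RNA level is not limited by these counts. MRPS24 was counted at 0 to 0.463 CPM in A549 and 0.851 to 1.32 CPM in SUM159, passed the filter on low counts only where SUM159 was included, and lies within the readthrough gene URGCP-MRPS24. This left 76 members tested in A549 and 77 in SUM159 as well as in the fit that joined the lines. In 16 members some exon bases were shared with another gene on the same strand, in 30 with a gene on the opposite strand, and 36 had at least 1 named pseudogene. How strand was used in counting is not given in the sources used here, so the part of overlapping genes in the counts of members cannot be told. Reads listed as ambiguous (3.02% to 3.47% of reads per library) were kept out of the gene counts. Members that share exon bases may therefore be counted too low.

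Per kilobase of exon, members ranged from 0.51 CPM per kilobase for MRPL46 (mean of the 7 groups) to 79.0 for MRPL51, apart from MRPL53 and MRPS24, which were lower. MRPS35 (74.7) and MRPS34 (68.9), of the small subunit, followed MRPL51 at the top. MRPL46, MRPL38 and MRPS28 stayed under 7 CPM in every library, so a change in them rested on few reads. They also share 11.3%, 41.1% and 35.8% of their exon bases with another gene on the same strand.

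Added over all members, the untreated cells gave 3659 and 3834 CPM in A549 and 4698 and 4526 CPM in SUM159. Under palbociclib the sum was 3633 and 3486 CPM, under indisulam 3344 and 3505 CPM, under the combination 2860 and 2746 CPM, and under PF-06873600 3609 and 3647 CPM in A549. The sum in SUM159 with PF-06873600 was 2908 and 2938 CPM. It was thus lower than untreated by 4.99% with palbociclib, 8.59% with indisulam, 25.2% with the combination and 3.16% with PF-06873600 in A549, and by 36.6% with PF-06873600 in SUM159. The libraries of the groups compared did not overlap in any of these cases, and an exact permutation test of 2 against 2 libraries can give no two-sided p under 0.333. In bulk RNA, fewer cells that express a gene and less of its RNA per cell cannot be told apart. CPM is also a share of all counts on genes, so absolute amounts of RNA per cell were not measured. Large and small subunit members both had their lowest A549 sum in the combination (1684 ± 44.4 and 1104 ± 37.6 CPM, SD, n = 2). In SUM159 the large subunit sum went from 2916 ± 96.8 to 1870 ± 5.58 CPM and the small subunit sum from 1667 ± 25 to 1033 ± 17.0 CPM.

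**Figure D1:**
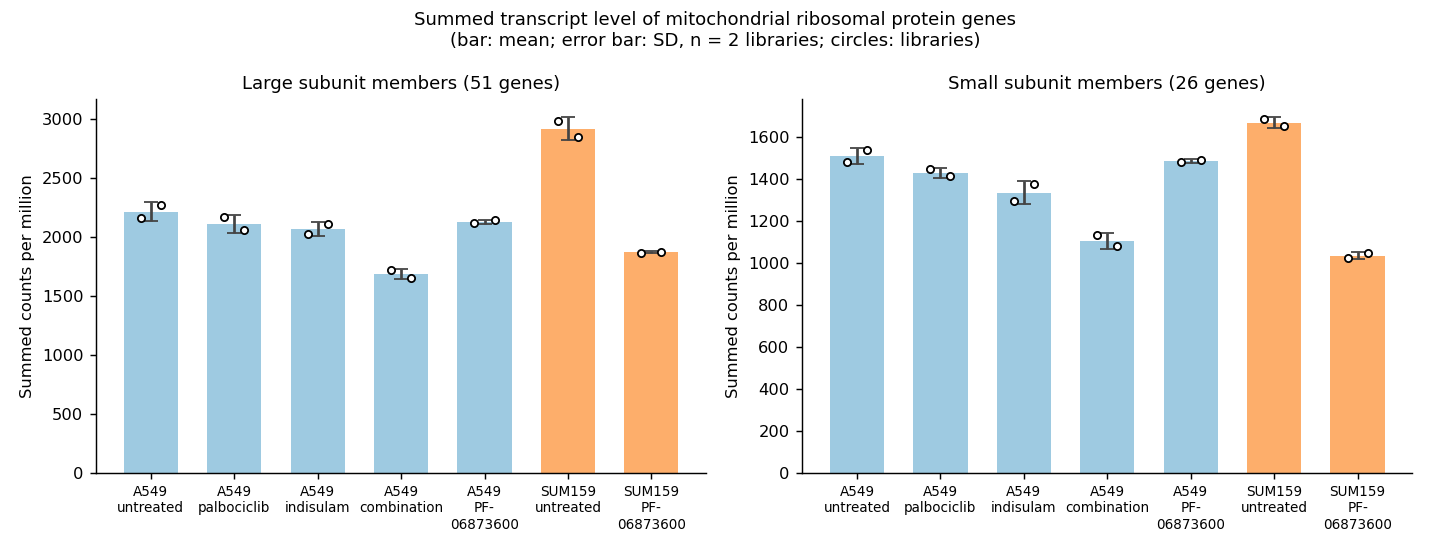
Summed levels (CPM) of the 51 large subunit (left) and 26 small subunit members (right) in each group, with bars for means, error bars for the SD of 2 libraries and circles for libraries. The combination is the lowest A549 group in both panels, and the SUM159 libraries with PF-06873600 lie far below the untreated ones.

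Each drug alone was set against untreated A549 first. Counts were compared by the quasi-likelihood F test of edgeR, with p adjusted over all genes tested by the Benjamini-Hochberg method at a threshold of 0.05, and changes are given on the log2 scale with their SE. With palbociclib 3 members rose and 9 fell of 76 tested, against 8.3% of all genes higher and 7.4% lower. The median member changed by -0.09 and the median of all genes by -0.01. MRPL54, a mitochondria-specific large subunit protein, stood at 22.4 and 23.7 CPM untreated and at 14.8 and 15.9 CPM with palbociclib (-0.59 ± 0.10, adjusted p = 0.0014), the lowest change of the comparison. MRPL48, a protein of the central protuberance of the large subunit, changed by -0.40 ± 0.10 (adjusted p = 0.015) and MRPS18A by -0.38 ± 0.09 (adjusted p = 0.013). MRPL19, MRPS12 and MRPL17 rose by 0.33, 0.30 and 0.24. The call of MRPL54 held in all 11 alternatives run for it, but each of the other 5 lost its call with only the compared groups in the fit. MRPS18A and MRPL17 also lost it with DESeq2, and MRPL17 without a filter. Calls were lost without the first palbociclib library in MRPS18A, MRPL19, MRPS12 and MRPL17, and without the second in MRPL48, MRPS18A, MRPL19 and MRPL17. Without the first untreated library MRPL19 and MRPL17 lost theirs, and without the second MRPL48 and MRPS12. The count depended on the fit. With only the untreated and palbociclib libraries 1 member was lower and 0 higher, and with DESeq2 3 were lower and 2 higher. It went to 16 lower and 5 higher without the first untreated library, 4 and 0 without the first palbociclib library, and 2 and 1 without the second.

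Indisulam lowered 26 members and raised 4 of 76, with a median of -0.10 against 0.08 for all genes, of which 17.5% were lower and 28% higher. Lowest was MRPL21, a homolog of a bacterial large subunit protein, at 55.7 and 62.0 CPM untreated and 41.1 and 42.7 CPM with indisulam (-0.49 ± 0.09, adjusted p = 0.00032). MRPS18A (-0.48 ± 0.09) and MRPL40 (-0.47 ± 0.10) were next, and the untreated and treated libraries of neither overlapped. MRPL38, MRPL19, MRPS6 and MRPL33 were the 4 that rose. All 4 share exon bases with another gene on the same strand, and MRPL38 was at only 0.667 to 3.04 CPM in the libraries compared. When libraries were scaled by trimmed means of M values (TMM) the split became 34 lower and 1 higher, and among all genes the higher share of calls went from 61.6% to 50.4%. The calls of MRPL38, MRPS6 and MRPL33 were lost with TMM, with DESeq2 and with only the compared groups in the fit. They were also lost without the first indisulam library (MRPL38 and MRPL33), the second (MRPS6 and MRPL33), the first untreated library (MRPS6 and MRPL33) or the second (MRPL38). Without the first indisulam library 16 were lower, and with only the untreated and indisulam libraries in the fit 17 were lower and 1 higher.

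The combination lowered most members. Of 76 tested, 52 fell and 3 rose, against 30% of all genes lower and 35.1% higher, with a median of -0.40 for the members and 0.05 for all genes. With TMM 59 fell and 1 rose, and the medians were -0.48 and -0.03. Among all genes the higher share of calls went from 53.9% to 47.6%. The small subunit had 21 of 25 members lower and the large subunit 30 of 50, and no test of the difference between subunits was made. Among the 62 members that share no exon bases on their strand, 47 fell and 1 rose. The combination also had the lowest mean of the 5 A549 groups in 55 of the 76 members, and no such count was made over all genes.

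**Figure D2:**
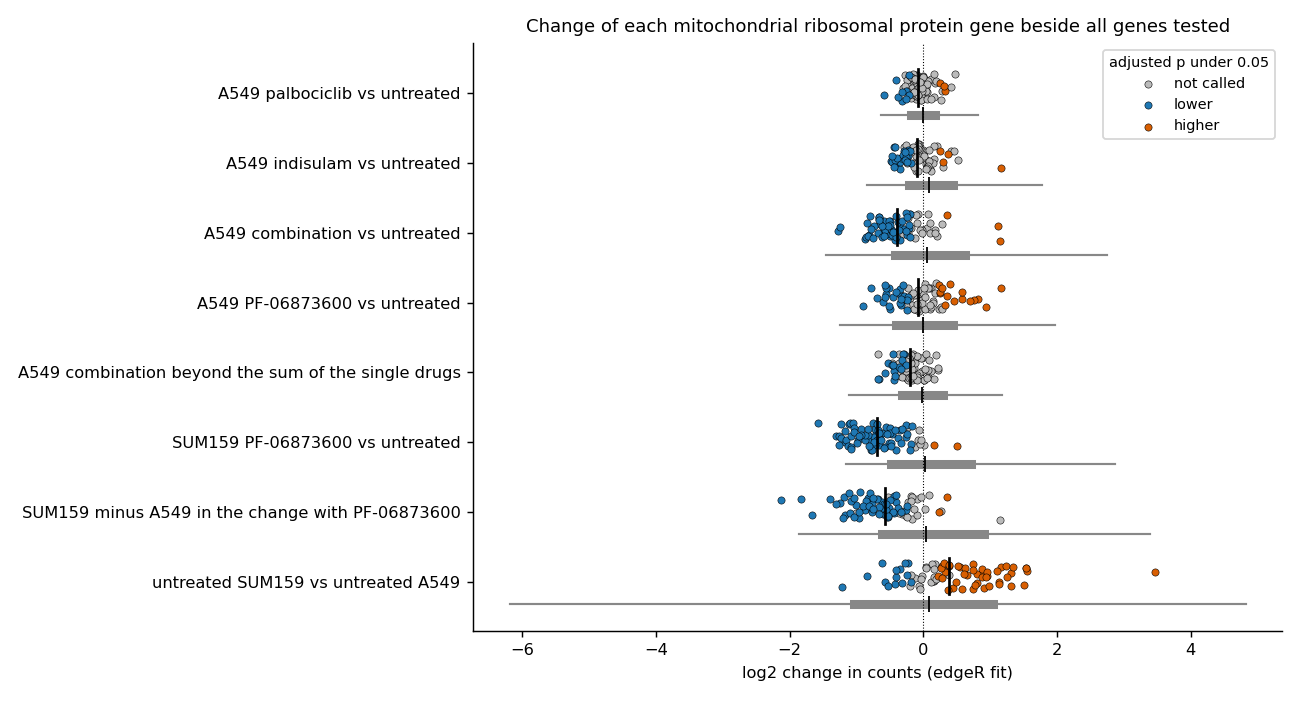
Change of each member on the log2 scale in 8 comparisons, as a point coloured by its call (orange higher, blue lower, grey not called) with a black line at the members' median. The grey bar under each set of points spans the 25th to 75th percentile of all genes tested, its thin line the 5th to 95th percentile and its tick their median. Blue points dominate in the combination (52 of 76) and in SUM159 with PF-06873600 (68 of 77).

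MRPL16, a protein close to the catalytic centre of the large subunit, showed the lowest change of the combination. It was at 48.1 and 46.7 CPM untreated, 41.3 and 40.5 CPM with palbociclib, 35.2 and 36.3 CPM with indisulam and 20.6 and 18.7 CPM with both. All these groups were apart, and the combination was lower than untreated by 1.27 ± 0.08 on the log2 scale (adjusted p = 4.5e-09), than palbociclib by 1.06 ± 0.08 and than indisulam by 0.87 ± 0.08.

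MRPL48 followed a like order, with 34.5 and 38.9 CPM untreated, 28.6 and 27.0 CPM with palbociclib, 25.9 and 28.1 CPM with indisulam and 15.7 and 15.4 CPM with both (combination against untreated -1.24 ± 0.11, adjusted p = 1.4e-07). Here the single-drug libraries overlapped each other and lay between the other groups. MRPL24 was at 94.7 and 95.1 CPM untreated and 51.6 and 52.1 CPM with both drugs (-0.87 ± 0.07, adjusted p = 5.0e-08). MRPS15, a small subunit protein of bacterial descent, was at 48.1 and 48.0 CPM untreated and 28.4 and 25.4 CPM with both, and was the third lowest against palbociclib alone (-0.70 ± 0.10). Neither member's libraries overlapped between these groups.

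Members with a known role or position moved unequally with the combination. The stalk proteins MRPL10 and MRPL11, where translation factors dock, changed by -0.59 ± 0.06 and -0.82 ± 0.10, and MRPL45, which ties the ribosome to the inner membrane, by -0.58 ± 0.08. MRPL58, a peptidyl-tRNA hydrolase that rescues stalled ribosomes, changed by -0.67 ± 0.10. The paralogs MRPS18A, MRPS18B and MRPS18C changed by -0.82 ± 0.10, -0.76 ± 0.07 and -0.36 ± 0.13. The call of MRPS18C (adjusted p = 0.023) was lost with DESeq2 and without either combination library or the second untreated one. MRPS12, a protein of the decoding centre, was at 66.5 and 53.9 CPM untreated and 62.6 and 63.7 CPM with both drugs (0.07 ± 0.09, adjusted p = 0.54). MRPL44 (0.11 ± 0.08, adjusted p = 0.26) and the stalk protein MRPL12 (0.21 ± 0.26, adjusted p = 0.50) did not pass the test either.

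The 3 members that rose with the combination were MRPL46, MRPL38 and MRPL41, all mitochondria-specific and in the large subunit. MRPL46 was at 2.31 and 2.27 CPM untreated and 5.46 and 4.70 CPM with both drugs (1.14 ± 0.23, adjusted p = 0.00056), and was the only member that rose against palbociclib alone (0.74 ± 0.22) and against indisulam alone (0.63 ± 0.22). The calls against the single drugs were lost in several of the alternatives, DESeq2 among them. MRPL46 shares 11.3% of its exon bases with another gene on its strand. MRPL38 (1.11 ± 0.45, adjusted p = 0.040) rested on levels under 3 CPM and shares 41.1% of its exon bases with another gene on its strand. MRPL41 went from 20.0 and 15.5 to 23.0 and 22.2 CPM (0.35 ± 0.12, adjusted p = 0.021). Neither MRPL38 nor MRPL41 was called with TMM scaling or DESeq2. Without the first untreated library 6 members were higher, and without either combination library 1 was.

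Against palbociclib alone the combination lowered 49 members and raised 1 (all genes 26.9% lower, 33.5% higher), and against indisulam alone it lowered 43 and raised 1 (all genes 23.9% lower, 22.0% higher). Median member changes were -0.32 and -0.29. With TMM 58 members were lower and 1 higher against palbociclib alone. Among all genes the higher share of calls in that comparison went from 55.4% to 47.3%. Against indisulam alone, DESeq2 called 23 members lower, and the count was 26 without the second indisulam library and 22 without the second combination library. The single higher call against palbociclib was lost without the first palbociclib or the first combination library, and that against indisulam without either combination library.

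Whether the combination differed from the sum of the single-drug changes was tested with an interaction term on the log2 scale. Below the sum lay 16 of 76 members and above it none, against 14.5% of all genes below and 10.7% above. The median member lay 0.20 below the sum and the median of all genes 0.02 below. At an unadjusted p under 0.05, 22 members were below and 0 above, and DESeq2 called 6 below and 0 above. MRPL50 was at 27.5 and 30.6 CPM untreated, 29.1 and 27.6 CPM with palbociclib, 30.6 and 33.4 CPM with indisulam and 19.6 and 19.5 CPM with both (-0.67 ± 0.13, adjusted p = 0.0017). Only the combination libraries of this mitochondria-specific gene stood apart from the untreated ones on the low side. MRPL16 (-0.66 ± 0.11, adjusted p = 0.00059) and MRPL57 (-0.57 ± 0.15, adjusted p = 0.014) were next, and the call of MRPL57 was lost with DESeq2 and without the second combination or the second indisulam library. The count fell to 5 without the second indisulam library, 6 without the first palbociclib library, and 8 and 7 without the first and second combination library.

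With PF-06873600 in A549, the shares of members called lay near or below those of all genes. Of 76, 15 rose (19.7%) and 23 fell (30.3%), against 28.5% of all genes higher and 27.8% lower, and the median member was at -0.08 with all genes at -0.01. Without the second PF-06873600 library 9 were higher. MRPS12 was at 66.5 and 53.9 CPM untreated and 135 and 134 CPM with PF-06873600 (1.16 ± 0.09, adjusted p = 6.6e-08), the highest level of any group. MRPL17, a large subunit protein of bacterial descent, rose from 46.0 and 47.9 to 78 and 81.5 CPM (0.76 ± 0.07, adjusted p = 2.8e-07), with no overlap. MRPL33 rose from 49.6 and 64.1 to 93.4 and 90.8 CPM (0.69 ± 0.09), and it shares 21.1% of its exon bases with BABAM2.

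MRPL12 was at 11.7 and 5.13 CPM untreated and 14.4 and 15.1 CPM with PF-06873600 (0.82 ± 0.25, adjusted p = 0.012). The untreated libraries lay far apart and the call was lost without the second of them or without the second PF-06873600 library. Of its exon bases 69.5% are shared with another gene on its strand. MRPL46 (2.31 and 2.27 to 4.67 and 4.14 CPM) rose by 0.94 ± 0.24, and MRPS11 (49.2 and 51.5 to 74.8 and 75 CPM) by 0.57 ± 0.08. This pair is the only one of members that lie within 1 kb of each other, with MRPL46 at chr15:88459477-88467390 on the minus strand, MRPS11 at chr15:88467453-88480776 on the plus strand and 62 bases between them. With the combination the pair split, as MRPL46 was called higher and MRPS11 lower. That lower call was lost with only the compared groups in the fit. In SUM159 both were called lower with PF-06873600. MRPL46 shares 11.3% of its exon bases with another gene on its strand.

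MRPL48 had the lowest change, from 34.5 and 38.9 to 17.3 and 21.6 CPM (-0.91 ± 0.11, adjusted p = 4.4e-06). MRPS27 fell from 196 and 221 to 116 and 126 CPM (-0.79 ± 0.07) and MRPL10 from 93.5 and 91.7 to 57.0 and 57.3 CPM (-0.70 ± 0.06). None of these libraries overlapped between the groups. MRPL45 (-0.60 ± 0.08), MRPL58 (-0.57 ± 0.10), MRPS18B (-0.55 ± 0.07), MRPS36 (-0.51 ± 0.11) and MRPS18A (-0.50 ± 0.09) fell too. Palbociclib and PF-06873600 were given at different doses and times, so they are set side by side only. MRPL48 stood at 28.6 and 27.0 CPM with 2 µM palbociclib for 10 days and at 17.3 and 21.6 CPM with 0.5 µM PF-06873600 for 7 days, and MRPS12 at 80.2 and 68.8 against 135 and 134 CPM.

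**Figure D3:**
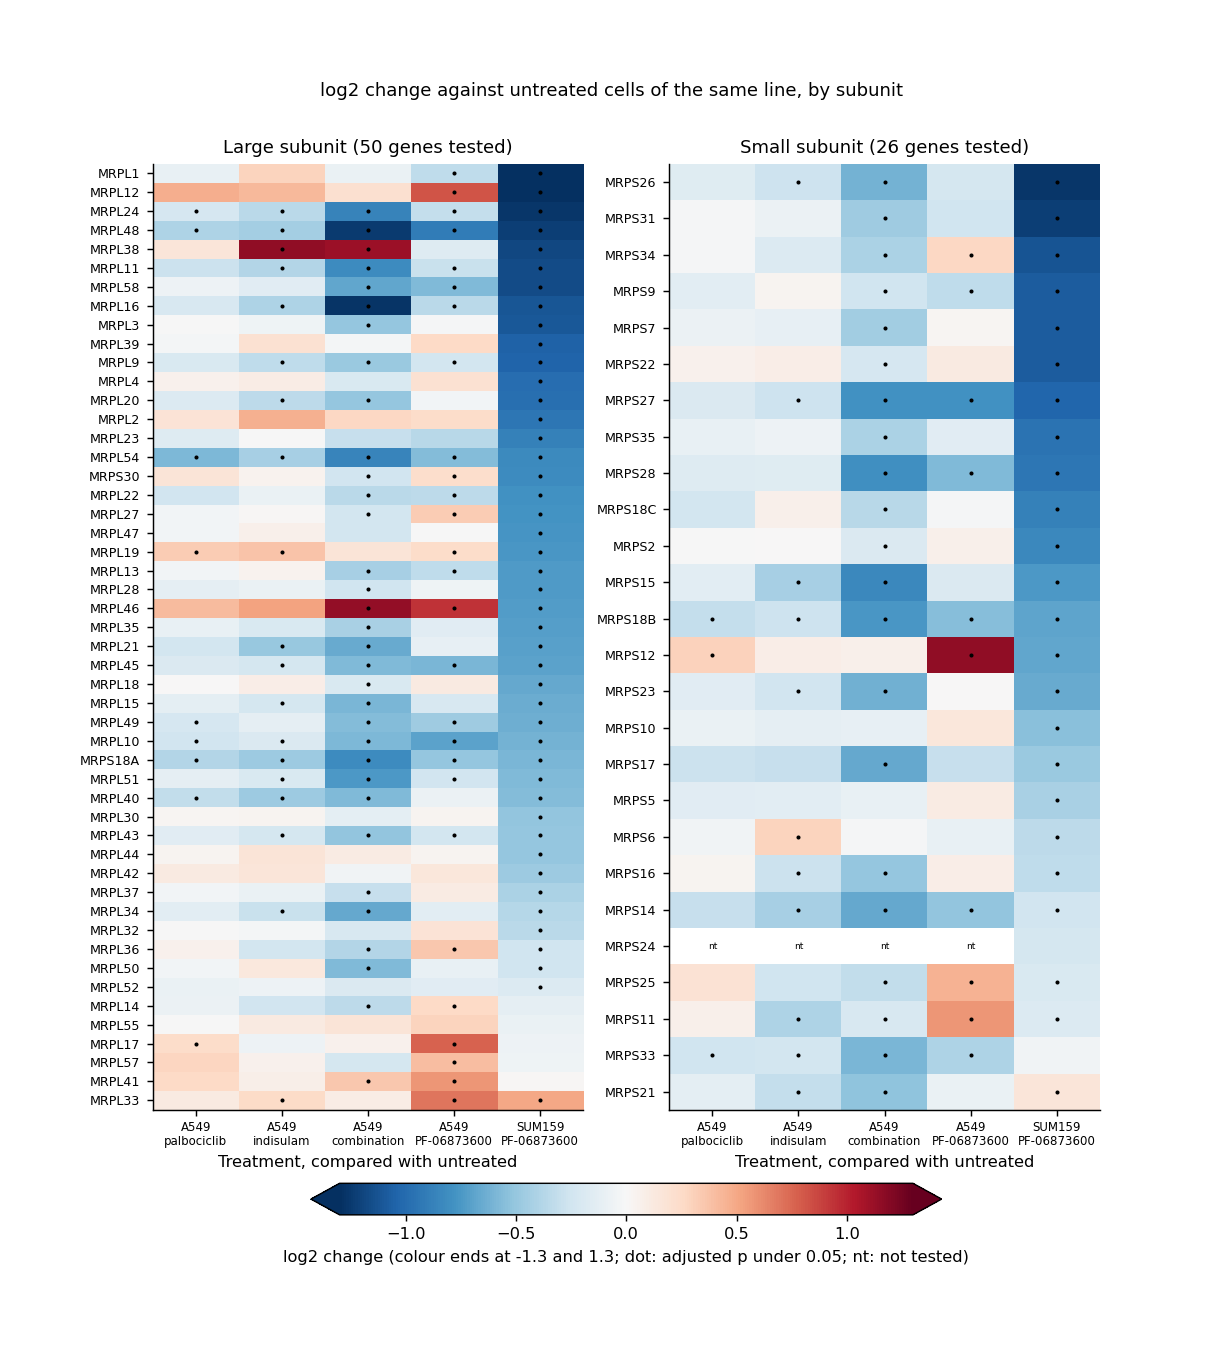
The log2 change of each large subunit (left) and small subunit member (right) against untreated cells of the same line, with genes ordered by their change in SUM159, blue for lower, red for higher and a dot for an adjusted p under 0.05. MRPS36, in neither subunit, is not drawn. The combination and SUM159 columns are mostly blue, and the A549 PF-06873600 column holds both colours.

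SUM159 showed the widest fall. PF-06873600 lowered 68 of 77 members and raised 2, against 35.6% of all genes lower and 38.1% higher, and the median member changed by -0.69 where the median of all genes was 0.02. Large subunit (44 of 50 lower) and small subunit members (23 of 26), bacterial homologs (40 of 46) and mitochondria-specific members (27 of 30) all fell in large part. In 18 members the level fell by more than 1 on the log2 scale. For all genes the 5th percentile of the change was -1.16 and the 25th -0.48. The number lowered ran from 63 to 67 when any 1 library was left out, and was 62 with DESeq2.

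MRPL1, a large subunit protein of the mobile L1 stalk, fell most, from 36.7 and 38.1 to 12.7 and 12.3 CPM (-1.58 ± 0.09, adjusted p = 3.7e-10). In A549 it was at 13.5 and 16.5 CPM untreated and 12.1 and 11.8 CPM with PF-06873600. The treated SUM159 libraries lay within the range of the A549 libraries (11.8 to 20.3 CPM), and the untreated SUM159 libraries above it. MRPL12 fell from 24.9 and 23.8 to 7.95 and 11.4 CPM (-1.31 ± 0.13, adjusted p = 3.8e-07) and MRPL24 from 76.2 and 72.1 to 31.0 and 30.5 CPM (-1.27 ± 0.07, adjusted p = 2.1e-10). None of the 3 had overlapping libraries.

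MRPL48 fell from 27.5 and 27.7 to 10.6 and 12.9 CPM (-1.23 ± 0.10) and MRPL16 from 51.1 and 52.0 to 22.9 and 24.6 CPM (-1.11 ± 0.07). Neither had overlapping libraries. The stalk protein MRPL11 (-1.17 ± 0.08), the hydrolase MRPL58 (-1.16 ± 0.07) and the small subunit proteins MRPS34 (-1.13 ± 0.06) and MRPS27 (-1.03 ± 0.05) were among the 18 that fell by more than 1. MRPS30 changed by -0.81 ± 0.06, and the paralogs MRPS18A, MRPS18B and MRPS18C by -0.59 ± 0.08, -0.69 ± 0.06 and -0.88 ± 0.08. MRPS12, which rose in A549, fell from 52.6 and 52.9 to 31.8 and 34.2 CPM (-0.67 ± 0.07).

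MRPL33 and MRPS21, both homologs of bacterial proteins, were the 2 that rose in SUM159. MRPL33 went from 53.2 and 51.5 to 76.5 and 72.2 CPM (0.50 ± 0.06, adjusted p = 3.1e-06). It was higher in both lines with PF-06873600. MRPS21 went from 58.6 and 60.7 to 65.9 and 66.7 CPM (0.15 ± 0.06, adjusted p = 0.031), a call lost with DESeq2, without a filter and when either PF-06873600 library or the first untreated one was left out. MRPS21 has 8 named pseudogenes, with which reads could be shared. MRPL17 (-0.07 ± 0.06), MRPL57 (-0.05 ± 0.08), MRPS33 (-0.04 ± 0.08), MRPL41 (0.01 ± 0.08), MRPL14 (-0.12 ± 0.07), MRPL55 and MRPS24 did not pass the test.

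Of the 52 members lower with the combination in A549, 49 (94.2%) were also lower with PF-06873600 in SUM159, which is 72.1% of the 68 lower there. These comparisons share no library, but since 88.3% of all members tested in SUM159 fell, most of any group of members would be found among them. Of the 23 members lower with PF-06873600 in A549, 22 were lower in SUM159, and MRPS33 was the exception. Of the 15 members higher in A549, 10 were lower in SUM159, namely MRPL12, MRPL19, MRPL27, MRPL36, MRPL46, MRPS11, MRPS12, MRPS25, MRPS30 and MRPS34. Of these 10, only MRPS12 kept both calls in all alternatives run. The A549 call was lost with DESeq2 in MRPS30, and the SUM159 call in MRPL46, MRPS11 and MRPS25, the last also with TMM. Without the first PF-06873600 library of A549 the call was lost in MRPL19, MRPL27, MRPL36 and MRPS34, without the second in MRPL12, MRPL19, MRPL36, MRPS30 and MRPS34, without the first untreated A549 library in MRPL19, MRPL36 and MRPS30, and without the second in MRPL12 and MRPS34. In SUM159 it was lost without the first PF-06873600 library in MRPL46, MRPS11 and MRPS25, without the second in MRPL36 and MRPS11, without the first untreated library in MRPS11 and without the second in MRPL46 and MRPS25.

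The response of the lines to PF-06873600 was compared with an interaction term over all 14 libraries. SUM159 responded lower in 55 of 77 members and higher in 2, against 27.2% of all genes lower and 25.8% higher. The median difference was -0.57 for the members and 0.04 for all genes. By log2 change, 71 of the 76 members measured in both were lower in SUM159 than in A549. No such count was made over all genes, whose 25th and 75th percentiles of the difference were -0.62 and 0.91. MRPL12 differed most (-2.13 ± 0.32, adjusted p = 1.3e-05), followed by MRPS12 (-1.83 ± 0.12, adjusted p = 3.3e-10), MRPL46 (-1.67 ± 0.37, adjusted p = 0.00087) and MRPS34 (-1.40 ± 0.11, adjusted p = 3.5e-09). MRPS33 (0.36 ± 0.12, adjusted p = 0.013) and MRPS21 (0.24 ± 0.09, adjusted p = 0.039) were the 2 that lay higher in SUM159, and with 1 library left out 0 to 2 members did. None did without the second untreated A549, second A549 PF-06873600, first untreated SUM159 or second SUM159 PF-06873600 library, and 1 did without the first A549 PF-06873600, second untreated SUM159 or first SUM159 PF-06873600 library. Several members that fell in both lines did not pass the test of the difference, among them MRPL10 (0.09 ± 0.09, adjusted p = 0.44), MRPS36 (0.02 ± 0.14, adjusted p = 0.94), MRPS18A (-0.09 ± 0.13, adjusted p = 0.59) and MRPL48 (-0.32 ± 0.16, adjusted p = 0.096).

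**Figure D4:**
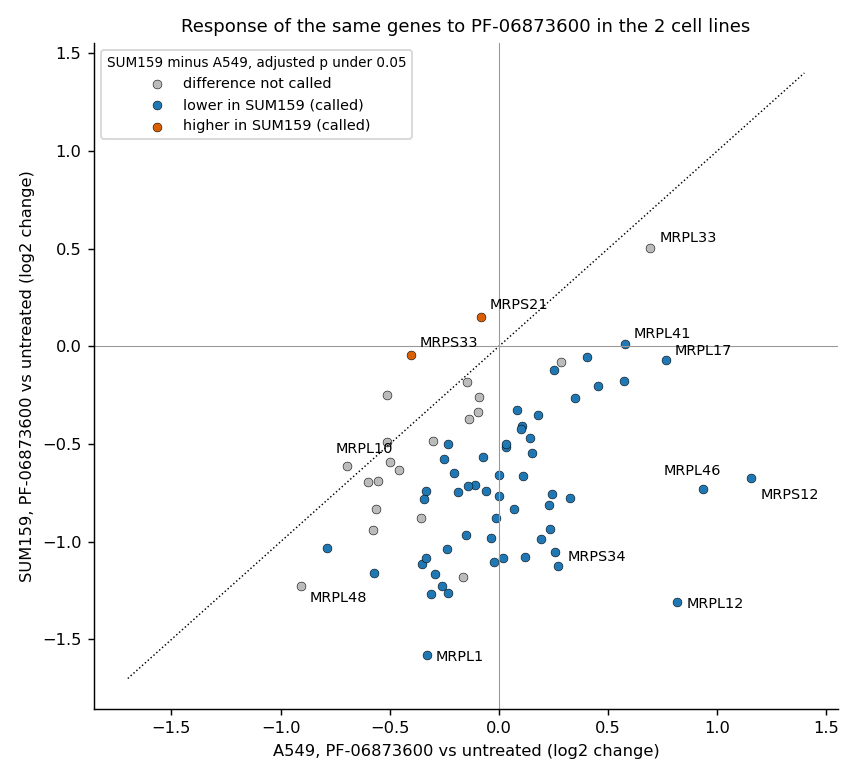
Log2 change with PF-06873600 in A549 (horizontal) against that in SUM159 (vertical) for the 76 members tested in both, with the dotted line where both are equal and colours for the call on the difference between the lines. Of these points, 71 lie below the line, with MRPS12, MRPL12 and MRPL46 farthest from it.

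Before treatment the lines already differed. In untreated SUM159, 45 of 77 members were higher and 14 lower than in untreated A549, against 41.9% of all genes higher and 36.8% lower, with a median of 0.38 for members and 0.08 for all genes. This comparison shares its untreated libraries with those above. MRPL38 (1.55 ± 0.42), MRPL39 (1.54 ± 0.12) and MRPL12 (1.54 ± 0.22) were among the highest. MRPL39 stood at 11.6 and 14.6 CPM in A549 and 39.1 and 37.1 CPM in SUM159, where PF-06873600 lowered it to 19.1 and 17.7 CPM. MRPS18C (1.33 ± 0.10), MRPL1 (1.32 ± 0.11) and MRPL36 (1.31 ± 0.10) were higher as well. For MRPS24 the fitted difference of 3.47 ± 0.71 compared 0.068 and 0.133 CPM in A549, under the limit of 3 counts per library, with 1.09 and 1.32 CPM in SUM159, and is no measure of size. MRPS35 was the lowest, with 184 and 205 CPM in A549 and 84.7 and 82.4 CPM in SUM159 (-1.22 ± 0.06, adjusted p = 1.7e-12), followed by MRPS33 (-0.84 ± 0.08) and MRPS28 (-0.62 ± 0.19).

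**Figure D5:**
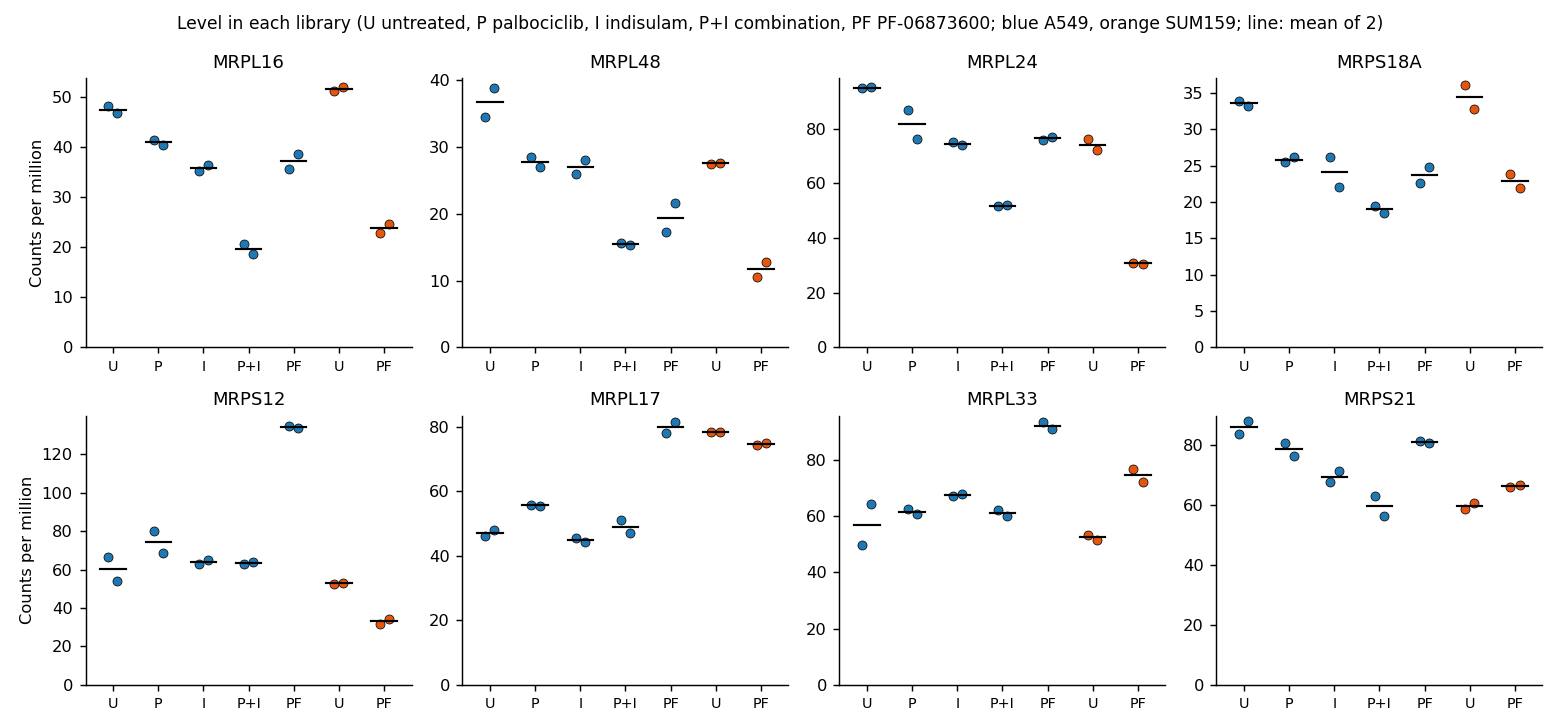
Levels (CPM) of 8 members in every library, as points (blue A549, orange SUM159) with a line at the mean of 2 libraries. MRPL16, MRPL48, MRPL24 and MRPS18A are lowest in A549 with the combination and lower in SUM159 with PF-06873600, MRPS12 and MRPL17 are highest in A549 with PF-06873600, and MRPL33 is higher with PF-06873600 in both lines.

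Of the 5 proteins of the mitochondrial ribosome whose genes have other symbols, DAP3, a GTP-binding small subunit protein, passed the test in no treatment. It ranged from 104 to 126 CPM over all 14 libraries. CHCHD1 was lower with the combination (-0.66 ± 0.08), from 37.5 and 40.5 to 25.4 and 23.9 CPM, and the other 4 did not pass there. With PF-06873600 in A549, GADD45GIP1 (0.47 ± 0.11), AURKAIP1 (0.31 ± 0.11) and PTCD3 (0.22 ± 0.07) rose. In SUM159 the same 3 fell by 1.08 ± 0.07, 0.69 ± 0.07 and 0.63 ± 0.06, and CHCHD1 by 0.36 ± 0.08. GADD45GIP1 stood at 70 and 62.9 CPM in untreated SUM159 and at 30.8 and 31.9 CPM after PF-06873600.

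Genes that act with the ribosome moved as well in SUM159 with PF-06873600, where 35.6% of all genes were lower and 38.1% higher. Of 32 tested assembly and rRNA modification factors, 28 were lower with PF-06873600, with a median of -0.59. C1QBP changed by -1.28 ± 0.07, the rRNA methyltransferase MRM1 by -1.26 ± 0.13 and METTL17 by -1.24 ± 0.07. Among 17 tested translation factors 11 were lower and 2 higher, with the ribosome recycling factor MRRF at -1.41 ± 0.07 and the initiation factor MTIF2 at -1.31 ± 0.06. Of 23 genes for mitochondrial DNA transcription and RNA processing, 21 were lower, PNPT1 (-1.21 ± 0.06), TBRG4 (-1.18 ± 0.06) and the DNA-packaging factor TFAM (-1.06 ± 0.06) most. In A549 the combination lowered 18 of 32 assembly factors and raised 4, and lowered 11 of 18 translation factors and raised 3, where 30% of all genes were lower and 35.1% higher. Of the 23 transcription and processing genes it raised 8 and lowered 5. With PF-06873600 in A549, where 28.5% of all genes were higher and 27.8% lower, 10 assembly factors were higher and 6 lower, 5 translation factors were higher and 5 lower, and 11 transcription and processing genes were higher.

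The mitochondrial genome's own transcripts were counted too, in poly(A)-selected libraries. The RNAs of the ribosome itself, MT-RNR1 and MT-RNR2, were higher in SUM159 with PF-06873600 by 1.11 ± 0.17 and 1.60 ± 0.17, with MT-RNR2 at 1812 and 3030 CPM untreated and 7683 and 7024 CPM treated. Of 13 mitochondrial mRNAs, 3 were higher and 1 lower there, against 38.1% of all genes higher and 35.6% lower. With the combination in A549 1 was higher and 1 lower, against 35.1% of all genes higher and 30% lower.

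Of 10 known regulators tested, PF-06873600 raised 1 and lowered 7 in SUM159, against 38.1% of all genes higher and 35.6% lower. In A549 it raised 3 and lowered 4 (all genes 28.5% and 27.8%), and the combination raised 2 and lowered 4 (all genes 35.1% and 30%). Those named below were chosen by the size of their called change. The NRF1 letters were in 6.78% of promoters of members lower in SUM159, against 11.6% of all member promoters and 8.58% of all promoters. Whether these letters go with the level of NRF1 was not tested. NRF1, an activator of nuclear genes for mitochondrial proteins, was at 23.5 and 21.9 CPM in untreated SUM159 and 8.71 and 8.32 CPM with PF-06873600 (-1.41 ± 0.11), and at 18.4 and 16.5 CPM in untreated A549 against 12.1 and 10.3 CPM with the combination (-0.64 ± 0.11). The coactivator PPARGC1A changed in opposite directions in the lines. With PF-06873600 it went from 3.02 and 2.32 to 11.8 and 11.4 CPM in SUM159 (2.11 ± 0.17) and from 9.72 and 12.2 to 7.43 and 5.32 CPM in A549 (-0.80 ± 0.17), a difference of 2.91 ± 0.25. Its relative PPARGC1B did the reverse, at -1.58 ± 0.13 in SUM159 and 1.01 ± 0.13 in A549. MYC was at 124 and 107 CPM in untreated A549 and 199 and 204 CPM with PF-06873600 (0.80 ± 0.07).

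Cytosolic ribosomal protein genes fell in both lines with PF-06873600. In A549 71 of 84 tested were lower (median -0.54), and in SUM159 79 of 84 (median -0.55). The interaction term called 18 of 84 lower and 12 higher in SUM159, against 27.2% of all genes lower and 25.8% higher. Nuclear-encoded subunits of oxidative phosphorylation belong to enzymes that, apart from succinate dehydrogenase, also hold products of mitochondrial translation. Of these subunits, 34 of 77 were lower and 15 higher with PF-06873600 in SUM159 (median -0.10). In A549 27 were lower and 12 higher (median -0.12). Of all genes 35.6% were lower and 38.1% higher with PF-06873600 in SUM159, and 27.8% lower and 28.5% higher in A549. With the combination 76 of 84 cytosolic ribosomal protein genes and 55 of 77 oxidative phosphorylation genes were lower, with medians of -0.58 and -0.33. Of all genes 30% were lower there. No test set these groups against the members.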

How the data were processed

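Poly(A)-selected, stranded single-end libraries (65 bases) were prepared from 14 samples. Per the labels, reads were aligned to GRCh38 with HISAT2 2.2.1 and counted with HTSeq. The annotation release and strand setting are not given in the sources used here. The deposited values are whole-number read counts per Ensembl gene, with 9 summary lines, which were kept out of library totals. Limits from counts cover counting error only.

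From these, symbols, coordinates and overlaps were taken from GENCODE release 44 (60370 of 60683 identifiers matched). Groups came from the sample labels. Genes were kept with filterByExpr, libraries scaled by total count as in the study's size factor, and counts tested with edgeR 4.0.16 (R 4.3.3; quasi-likelihood F test, Benjamini-Hochberg) in models of 10 A549, 4 SUM159 or all 14 libraries. SE was taken as |log2 change| over the root of F. Sums were compared by exact two-sided permutation tests (scipy). RefSeq promoters were searched on both strands.

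The members, gene lists and letters searched were chosen with earlier results of these data known. Named members are the 3 highest and 3 lowest called changes of each comparison with no overlap of libraries (overlap not used for interaction terms), the 3 highest and lowest levels, those at 3 counts or fewer, 12 named for role or position, and those called in opposite directions by 2 treatments; of other lists, up to 3 genes of largest called change, and all 5 outside the symbol rule. MRPL55 was named after its values were seen.

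Alternatives were TMM, DESeq2 1.42.0, no filter, a floor of 50 counts on the mean, a fit of the compared groups alone, the replicate number as a block, each library left out and, added after seeing the data, only members without same-strand overlap and crossed replicate numbers. The edgeR step was tested on simulated data.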

Additional observations from a re-analysis of the deposited data

Results flagged for a closer look

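The response to PF-06873600 differed between the lines, by an interaction term in edgeR's quasi-likelihood test over both lines (Benjamini-Hochberg adjusted p under 0.05). SUM159 was lower in 55 members and higher in 2 of 77, against 27.2% of all genes lower and 25.8% higher. The 2 higher calls went to 0 without the second untreated A549, second A549 PF-06873600, first untreated SUM159 or second SUM159 PF-06873600 library. The difference in log2 change (SUM159 minus A549) was -2.13 for MRPL12, -1.83 for MRPS12 and -1.67 for MRPL46, and 0.36 for MRPS33 and 0.24 for MRPS21. The libraries of MRPL12 in untreated A549 stood at 11.7 and 5.13 CPM, and its call in A549 was lost without the second of these.

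The combination differed from the sum of the single-drug changes, by an interaction term in the same kind of test. It lay below the sum in 16 of 76 members, against 14.5% of all genes, and above it in 0 (0 also at an unadjusted p under 0.05 and with DESeq2), against 10.7%. DESeq2 called 6 below, and the count was 5 without the second indisulam library, 6 without the first palbociclib library, and 8 and 7 without the first and second combination library. The largest were MRPL50 at -0.67, MRPL16 at -0.66 and MRPL57 at -0.57 on the log2 scale. The call of MRPL57 was lost with DESeq2 and without the second combination or the second indisulam library.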

How the results depend on the processing

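No change of a named member reversed direction where the main fit or the alternative called it. Changes of sign in members called in neither were not counted. With DESeq2 the counts of members were 3 lower for palbociclib, 1 higher for indisulam, 1 higher for the combination, 0 higher against palbociclib alone, 0 higher and 23 lower against indisulam alone, 6 below the sum of the single drugs and 1 higher for SUM159 with PF-06873600. With TMM 1 was higher for indisulam and 1 for the combination, the median against palbociclib alone was -0.4143, and the median of untreated SUM159 against A549 was 0.2734 (0.2915 with DESeq2). With only the compared groups, counts were 0 higher and 1 lower for palbociclib, 1 higher and 17 lower for indisulam, and 2 higher and 3 higher for the combination against palbociclib and indisulam alone. Without a filter 2 were higher against palbociclib alone, 1 for SUM159 with PF-06873600 and 1 for the difference between lines. Among members without same-strand overlap, chosen after seeing the data, 0 were higher for indisulam, 1 for the combination, 0 and 0 against the single drugs and 1 for SUM159. Apart from what is named here, counts stayed within 1.5 times. The cause of these shifts was not tested.

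With 1 library left out, where a group's lone library was assumed to vary like the other groups, higher and lower counts ran from 0 to 5 and 2 to 16 (palbociclib), 3 to 6 and 16 to 30 (indisulam), 1 to 6 and 38 to 51 (combination), 0 to 1 and 35 to 44 (against palbociclib), 0 to 1 and 22 to 38 (against indisulam), 9 to 17 and 16 to 27 (PF-06873600 in A549), 0 and 5 to 22 (beyond the sum), 1 to 2 and 63 to 67 (SUM159), 0 to 2 and 50 to 57 (difference between lines) and 42 to 46 and 13 to 16 (untreated lines).

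The labels number the replicates 1 and 2 in each group, and 2 such pairs do not establish a pairing. Deviations of same-numbered libraries correlated at -0.326 (palbociclib) to 0.325 (indisulam) with untreated A549. With the replicate block, 50 members were lower with the combination, 68 with PF-06873600 in SUM159 and 15 below the sum, and 1 in place of 2 was higher in the difference between lines. With crossed numbers as the block, added after seeing the data, 13 were lower and 3 higher for palbociclib, and 14 lower and 44 higher for untreated SUM159. Totals of 13060374 to 21149256 counts limit MRPL53, MRPS24, MRPL38 and MRPL46 most.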
